A study of Mus musculus with 119 samples.

Results

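The comparison of THC with vehicle in the ventral tegmental area (VTA) of female mice rests on 12 of the 119 libraries of the study, chosen by the region, sex and treatment in their sample labels. Female mice received THC at 10 mg/kg or vehicle by intraperitoneal injection once a day from postnatal day 28 to 48, 21 injections in all, and behavioral testing began on postnatal day 63. The vehicle group gave libraries FTL_357 to FTL_362 and the THC group libraries FTL_363 to FTL_368, so n = 6 in each group throughout. Both groups are labelled C57BL/6J mice of 11 weeks, the study's methods name C57BL/6NCrl, and no label gives a transgene or deletion. The vehicle was a mixture of ethanol, Tween and saline that the THC group also received. Each library is polyadenylated RNA of a tissue punch that holds all the cell types of the region. The question was whether daily exposure to THC in adolescence left a difference in VTA gene expression after weeks without the drug.

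The VTA is the midbrain source of the dopamine pathways to the nucleus accumbens and prefrontal cortex, and besides dopamine neurons it holds GABA and glutamate neurons, astrocytes, oligodendrocytes and microglia. THC, the main psychoactive compound of cannabis, acts on the cannabinoid receptor CB1, which in this region is known mainly on the axon terminals that reach dopamine neurons. Microglia, the resident immune cells of the brain, depend on the growth factor receptor CSF1R, scan tissue through receptors such as P2RY12 and CX3CR1, and make the complement proteins that tag synapses for removal.

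Total expected counts per library ranged from 13103620 to 22778428 (median 15819423) in the vehicle group and from 11228721 to 38483520 (median 15307889) in the THC group, and library FTL_365 of the THC group was the deepest. Dopamine neuron genes marked every library as midbrain. Th, the rate-limiting enzyme of dopamine synthesis, lay between 651.1 and 839.3 CPM (counts scaled by effective library size) with vehicle and between 236.4 and 827.6 CPM with THC. The punches differed in what else they held. The mean log2 CPM of 10 fibroblast markers was 2.06, 1.63 and 2.11 in THC libraries FTL_363, FTL_364 and FTL_366, below the vehicle range of 3.47 to 4.68, and 5.09 in THC library FTL_365, above it. The same 3 libraries had haemoglobin transcripts at 4.55, 5.69 and 4.56 against a vehicle range of 7.61 to 8.43, and library FTL_365 stood at 9.67. Libraries FTL_363, FTL_364 and FTL_366 also stood apart on the first principal component of the 500 most variable genes, which held 44.5% of their variance. Their scores were 29.6, 28.5 and 25.5, and no other library was above 6.1. Slc17a7, the vesicular glutamate transporter of cortex and hippocampus, was at 72.7 CPM in library FTL_365 against 1.2 to 2.5 CPM in the other 5 THC libraries, and ranged from 3.08 to 78.5 CPM in the vehicle libraries.

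**Figure D1:**
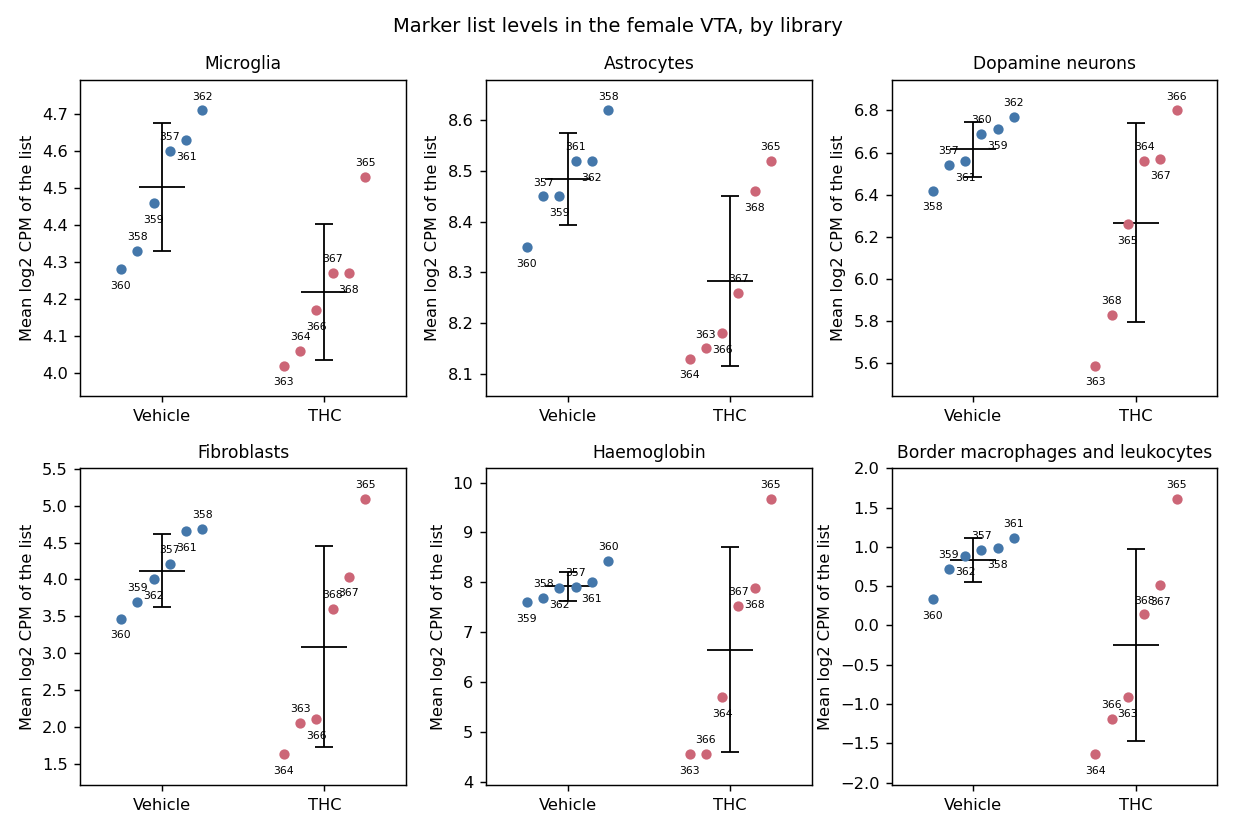
Mean log2 CPM of 6 marker lists in each library of the female VTA (points, labelled with the library number), with the mean and SD of each group of 6 as bars. THC libraries FTL_363, FTL_364 and FTL_366 sit lowest for fibroblasts, haemoglobin and border macrophages, THC library FTL_365 sits highest for them, and 5 of 6 THC libraries sit below the lowest vehicle library for microglia.

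No gene differed between THC and vehicle after adjustment over the 15747 genes tested (edgeR's quasi-likelihood test, a false discovery rate under 0.05 with a log2 fold change of 0.4 or more in size, 0% called). The smallest false discovery rate (FDR, the Benjamini-Hochberg adjusted p) was 0.259, for Zfp36l2, and the next was 0.512. At an unadjusted p under 0.05, 731 genes (4.64%) were higher with THC and 690 (4.38%) were lower, 1421 (9.02%) in all. DESeq2 was run without edgeR's filter on low counts, so its shares are over a larger set, the 29191 genes with a DESeq2 p. DESeq2 called 3 of 29191 genes (0.0103%), Zfp36l2 (log2 fold change -0.51, DESeq2 adjusted p = 0.000866), Csf1r (-0.45, DESeq2 adjusted p = 0.0197) and the uncharacterized gene 4933427D14Rik (0.59, DESeq2 adjusted p = 0.0114), with 875 higher (3%) and 774 lower (2.65%) at an unadjusted p under 0.05, 5.65% in all. In what follows a member of a gene list is counted as lower or higher where its unadjusted edgeR p was under 0.05, and none of the members counted passed the adjustment. The background for every list is the share of all genes tested, 4.64% higher, 4.38% lower and 50% with a log2 fold change below 0, and a count of 1 or 2 members is read as no result about its list. The study had reported female VTA gene modules of these samples that correlated negatively with THC. They were enriched for astrocyte and microglia markers, interferon signaling and purinergic receptor genes. The lists were chosen with earlier results of these data known, so counts for these cell types and pathways are not independent of that report. In bulk tissue, fewer cells of a type and less RNA per cell cannot be told apart.

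Zfp36l2, which encodes a protein that binds AU-rich elements and promotes the decay of mRNA, had the smallest p of all genes. It lies on the minus strand of mm10 at chr17:84183931-84187947. It ranged from 43.7 to 59.1 CPM (median 45.6) with vehicle and from 29.9 to 39.2 CPM (median 33.5) with THC. The highest THC library was below the lowest vehicle library, and the same held for 34 genes of those tested (0.216%). The log2 fold change was -0.51 ± 0.08 (SE), with an unadjusted p of 1.64e-05, and p stayed under 0.05 in all 12 fits that left out 1 library. Those fits reuse the libraries that gave the gene its smallest p, so they are not independent support.

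Microglia markers were lower together. Of 22 markers, all of them tested, 22 had a log2 fold change below 0 and 14 were lower against none higher, beside 4.38% of all genes lower. Their median log2 fold change was -0.26 (range -0.48 to -0.02), while the median over all genes tested was 0. The summed level of the 22 markers ran from 627.8 to 806.9 CPM with vehicle and from 514.9 to 723.8 CPM with THC. By mean log2 CPM, 5 of the 6 THC libraries (4.02 to 4.27) lay below the lowest vehicle library (4.28), and library FTL_365 lay within the vehicle range at 4.53.

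**Figure D2:**
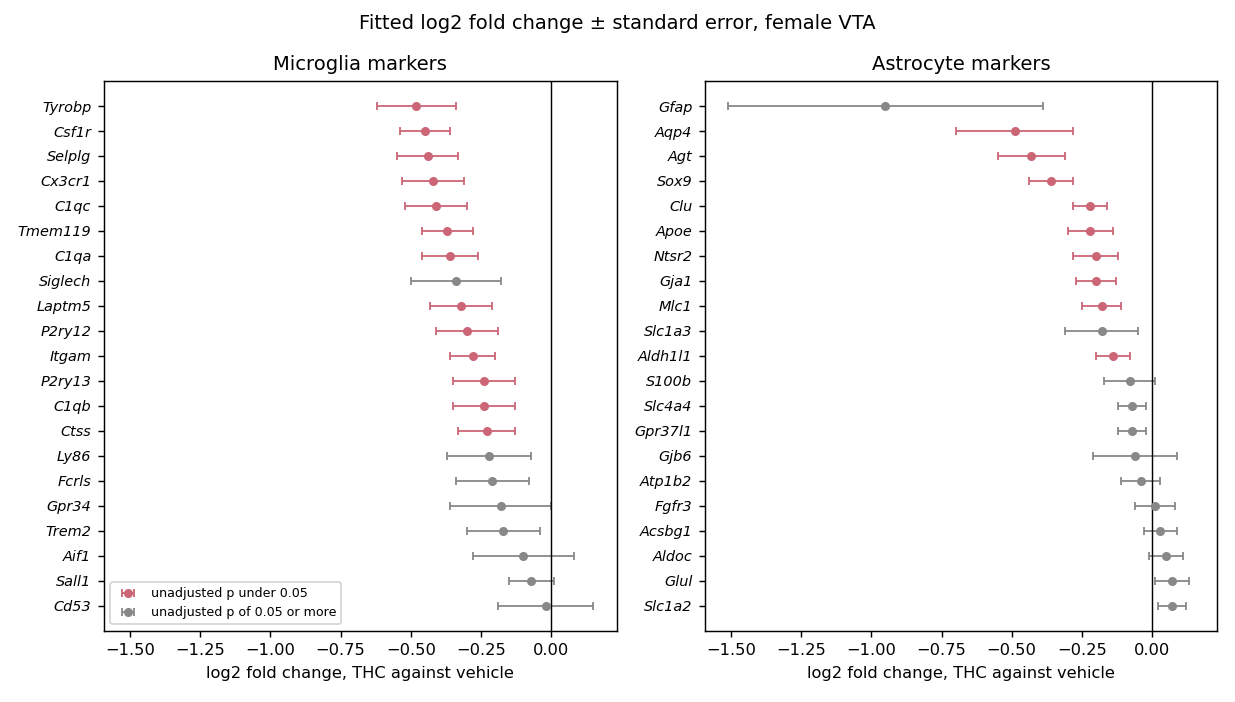
Fitted log2 fold change of THC against vehicle (x axis, points) with its SE (bars) for 21 of the 22 microglia markers and 21 astrocyte markers, with red for an unadjusted p under 0.05 and grey for others. All 21 microglia markers drawn lie below 0, and 13 of them and 9 astrocyte markers are red.

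Among the receptors, Csf1r, on which microglia depend for survival, ranged from 77.6 to 99.5 CPM (median 93.8) with vehicle and from 56.4 to 85.7 CPM (median 64.5) with THC. Every THC library except FTL_365 was below the vehicle range, and the log2 fold change was -0.45 ± 0.09 (SE; unadjusted p = 0.000163). Cx3cr1, the receptor for the neuronal chemokine fractalkine, went from a median of 53.4 CPM (range 40.4 to 54.01) with vehicle to 36.02 CPM (range 30.9 to 48.2) with THC. Its log2 fold change was -0.42 ± 0.11, with 4 of 6 THC libraries below the vehicle range. P2ry12, the purine receptor of resting microglia, overlapped more between the groups, at 19.5 to 28.9 CPM with vehicle and 15.9 to 23.9 CPM with THC (log2 fold change -0.30 ± 0.11, unadjusted p = 0.013). Its neighbour in function, P2ry13, was at -0.24 ± 0.11, and the integrin subunit Itgam at -0.28 ± 0.08 (unadjusted p = 0.00389). Selplg, a ligand for selectins, ranged from 26.8 to 38.8 CPM with vehicle and from 19.2 to 29.8 CPM with THC, and 5 of the 6 THC libraries were below the vehicle range (log2 fold change -0.44 ± 0.11).

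The surface and signalling markers went the same way. Tmem119, a membrane protein that sets resident microglia apart from other macrophages, was at 23.6 to 30.02 CPM with vehicle and 16.99 to 25.6 CPM with THC (log2 fold change -0.37 ± 0.09, unadjusted p = 0.00079). Tyrobp, the adaptor through which TREM2 signals, had a log2 fold change of -0.48 ± 0.14, the lowest of the list. Trem2 itself was at -0.17 ± 0.13 and was not counted. The lysosomal genes Laptm5 (-0.32 ± 0.11) and Ctss (-0.23 ± 0.10) showed smaller differences. The remaining members that were not counted ranged up to Cd53, at -0.02 ± 0.17.

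The 3 chains of complement C1q, the protein that opens the classical complement cascade and marks synapses in development, are encoded side by side on the minus strand of mm10 chromosome 4, C1qb at chr4:136880129-136886187, C1qc at chr4:136889804-136893065 and C1qa at chr4:136895917-136898803. C1qc ranged from 37.2 to 46.6 CPM with vehicle and from 25.2 to 42.8 CPM with THC, a log2 fold change of -0.41 ± 0.11 (unadjusted p = 0.00177). C1qa ranged from 41.9 to 54.9 CPM and from 33.8 to 52.7 CPM, a log2 fold change of -0.36 ± 0.10 (unadjusted p = 0.00358). C1qb differed least, with 43.1 to 61.2 CPM against 40.3 to 59.05 CPM and a log2 fold change of -0.24 ± 0.11 (unadjusted p = 0.0402), and its p was under 0.05 in 3 of the 12 fits without 1 library. The THC libraries below the whole vehicle range numbered 5 for C1qc, 4 for C1qa and 3 for C1qb, and library FTL_365 lay inside that range for each.

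Promoters of 3 of these lower genes are shown because they share a short motif of ETS-family factors, the family of the macrophage regulator PU.1. The sequences are from RefSeq (GRCm38.p6) and carry in capitals each match to AGGAAGT on either strand. They run from 250 bases before to 50 bases after the RefSeq gene start, on the gene's own strand. For C1qc that start lies inside the GENCODE span given above, so the annotations differ in where the gene starts. The sequences belong to C1qb (chr4:136886151-136886450, minus strand), C1qc (chr4:136892865-136893164, minus strand) and the protease gene Ctss (chr3:95526536-95526835, plus strand).
C1qb: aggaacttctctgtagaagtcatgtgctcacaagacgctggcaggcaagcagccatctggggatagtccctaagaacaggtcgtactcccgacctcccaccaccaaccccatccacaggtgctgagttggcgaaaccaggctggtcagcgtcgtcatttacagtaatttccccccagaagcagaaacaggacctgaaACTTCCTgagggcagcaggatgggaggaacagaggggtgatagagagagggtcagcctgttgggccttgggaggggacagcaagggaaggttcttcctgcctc
C1qc: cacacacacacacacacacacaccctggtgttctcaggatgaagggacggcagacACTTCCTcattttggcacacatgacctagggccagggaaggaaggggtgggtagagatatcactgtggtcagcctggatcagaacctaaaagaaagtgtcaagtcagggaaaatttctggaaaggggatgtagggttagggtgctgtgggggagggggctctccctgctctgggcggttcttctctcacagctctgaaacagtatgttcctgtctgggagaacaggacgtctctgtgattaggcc
Ctss: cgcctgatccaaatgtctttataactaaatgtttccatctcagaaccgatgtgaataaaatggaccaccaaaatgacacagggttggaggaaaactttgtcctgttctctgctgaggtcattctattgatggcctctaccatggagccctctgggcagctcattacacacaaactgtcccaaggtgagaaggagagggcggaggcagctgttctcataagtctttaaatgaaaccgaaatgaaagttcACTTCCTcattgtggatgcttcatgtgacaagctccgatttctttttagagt
All 3 matches are on the opposite strand. Of the microglia markers, 15 were matched to 17 promoter sequences, and 7 of these (41.2%) held AGGAAGT, against 3072 of 32851 promoters of the whole table (9.35%). The marker set left out any promoter on a particular chromosome, while the whole table kept that chromosome. Overlapping forms of the motif gave 52.9% against 23.8% for GGAAGT, 64.7% against 28.3% for GAGGAA, 47.1% against 13.6% for GAGGAAG and 17.6% against 3.2% for GAGGAAGT. The microglia markers whose promoters held AGGAAGT were P2ry12, Fcrls, Ctss, Cd53, C1qb, C1qc and Sall1. They include Cd53, which was not counted as lower, so the motif was not limited to the lower markers. Fcrls and Sall1 are not among the counted markers named above either. Whether the motif went with a lower level was not tested. A match is a description of these letters in this window, and the forms searched were chosen after the genes were known.

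The microglia values were also computed in fits that bear on what the punches held. With the mean fibroblast level as a covariate, the median of the 22 markers was -0.16 and 8 were lower, and without THC libraries FTL_363, FTL_364 and FTL_366 the median was -0.15 and 6 were lower. Both fits were added after the data were seen. With the mean dopamine neuron level as a covariate 9 were lower and the median was -0.23. The 3 libraries low in fibroblast and haemoglobin transcripts were also the 3 lowest in microglia markers, so a smaller difference without them was fixed by their removal, and library FTL_365, the highest in both, was the highest THC library for microglia markers. The part of the punch composition in the microglia values was not tested. Among border macrophage and leukocyte markers, 6 of 14 were expressed enough to be tested, the median log2 fold change was -0.51, and none was counted. The median of the border macrophage list was -1.26 without library FTL_365, where 5 members were lower, and 0.08 without libraries FTL_363, FTL_364 and FTL_366. The same 3 libraries were the lowest for this list and library FTL_365 the highest, so the direction of both shifts was fixed by the removals. Mrc1, a marker of perivascular macrophages, ranged from 3.87 to 7.75 CPM with vehicle and from 1.97 to 8.84 CPM with THC.

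**Figure D3:**
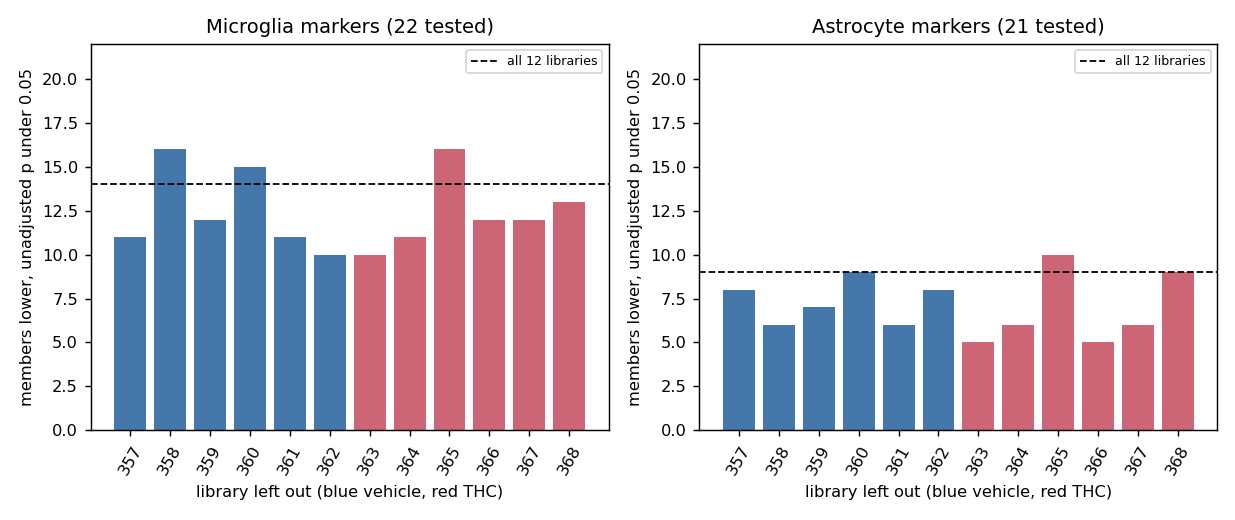
Number of microglia and astrocyte markers that were lower with THC at an unadjusted p under 0.05 (y axis) when the library named on the x axis was left out, with blue bars for vehicle libraries and red bars for THC libraries. The dashed lines mark the counts with all 12 libraries, 14 and 9, and the bars run from 10 to 16 for microglia and from 5 to 10 for astrocytes.

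Leaving out library FTL_365 alone raised the number of genes called from 0 to 15, all lower with THC, and the microglia markers lower to 16. Library FTL_365 was the highest THC library for microglia markers, so a larger microglia difference without it was fixed by its removal. The THC libraries left included FTL_363, FTL_364 and FTL_366, which were low in fibroblast and haemoglobin transcripts. The part of the punch composition in the 15 calls was not tested. The 15 were the microglia genes Csf1r, C1qc, C1qa, Cx3cr1 and Selplg, the scavenger receptor Stab1, the lecithin cholesterol acyltransferase Lcat, the cytokine receptor subunit Il6st, the cholesterol exporter Abca1, the interferon-induced Ifit3, Zfp36l2, Id4, Padi2, Adamts9 and Gm9780. Lcat ranged from 27.6 to 34.1 CPM with vehicle and from 14.9 to 21.2 CPM in the 5 THC libraries other than FTL_365, where it was 33.3 CPM. With library FTL_365 its log2 fold change was -0.56 ± 0.18, and without it -0.79. Each of the other 11 fits without 1 library called none.

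Astrocyte markers were split. Of 21 markers, all tested, 9 were lower and none higher, 16 were below 0, and the median log2 fold change was -0.14 (range -0.95 to 0.07). Sox9, a transcription factor that maintains astrocyte identity, ranged from 28.4 to 40.6 CPM with vehicle and from 22.9 to 28.98 CPM with THC, and 4 THC libraries lay below the vehicle range (log2 fold change -0.36 ± 0.08, unadjusted p = 0.000592). Agt, the precursor of angiotensin, was at 244.3 to 319.9 CPM with vehicle and at 159.4 to 280.9 CPM with THC (log2 fold change -0.43 ± 0.12, unadjusted p = 0.00307). Aqp4, the water channel of astrocyte endfeet, lay below the vehicle range of 344.3 to 511.5 CPM in 5 THC libraries (182.4 to 303.6 CPM) and was 466.9 CPM in library FTL_365.

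The lipid carriers Clu (-0.22 ± 0.06, unadjusted p = 0.00392) and Apoe (-0.22 ± 0.08) were lower by a similar amount, as were the gap junction gene Gja1 (-0.20 ± 0.07), the neurotensin receptor Ntsr2 (-0.20 ± 0.08), Mlc1 (-0.18 ± 0.07) and the folate enzyme Aldh1l1 (-0.14 ± 0.06). The glutamate transporter Slc1a2 was at 0.07 ± 0.05 and glutamine synthetase Glul at 0.07 ± 0.06, neither of them counted. Gfap, the intermediate filament of fibrous and reactive astrocytes, had the lowest value of the list, -0.95 ± 0.56 (unadjusted p = 0.122), and spread from 110.4 to 1165 CPM within the THC group. Gfap was lowest in libraries FTL_363, FTL_364 and FTL_366, at 110.4, 132.3 and 218.6 CPM. With the fibroblast level as a covariate 3 astrocyte markers were lower, and without those 3 libraries 2 were lower and the median was -0.05. The same 3 libraries were the lowest in astrocyte markers, so a smaller difference without them was fixed by their removal. Leaving out library FTL_363 or library FTL_366 alone left 5 lower.

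Notch and BMP targets included 5 lower genes and 1 higher gene among 17, beside 4.38% of all genes lower and 4.64% higher, with a median log2 fold change of -0.23. The median of the Notch and BMP list was -0.09 with the fibroblast covariate and -0.11 without libraries FTL_363, FTL_364 and FTL_366, with 3 lower in either fit, and 9 were lower without library FTL_365. Libraries FTL_363, FTL_364 and FTL_366 were the lowest for this list and FTL_365 the highest THC library. The direction of the shifts without them was therefore fixed by the removals. Id4, an inhibitor of basic helix-loop-helix factors expressed in astrocytes and neural progenitors, ranged from 59.6 to 78.9 CPM with vehicle and from 44.2 to 64.9 CPM with THC (log2 fold change -0.42 ± 0.10, unadjusted p = 0.00082), and lay below the vehicle range in every THC library except FTL_365. The Notch effectors Hes1 (-0.27 ± 0.11), Hey1 (-0.20 ± 0.07) and Hey2 (-0.44 ± 0.16) and the mural cell receptor Notch3 (-0.23 ± 0.09) were lower. Nrarp, a feedback inhibitor of Notch signaling, was higher at 0.18 ± 0.07. The part of the low fibroblast and haemoglobin levels of libraries FTL_363, FTL_364 and FTL_366 in these values was not tested.

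**Figure D4:**
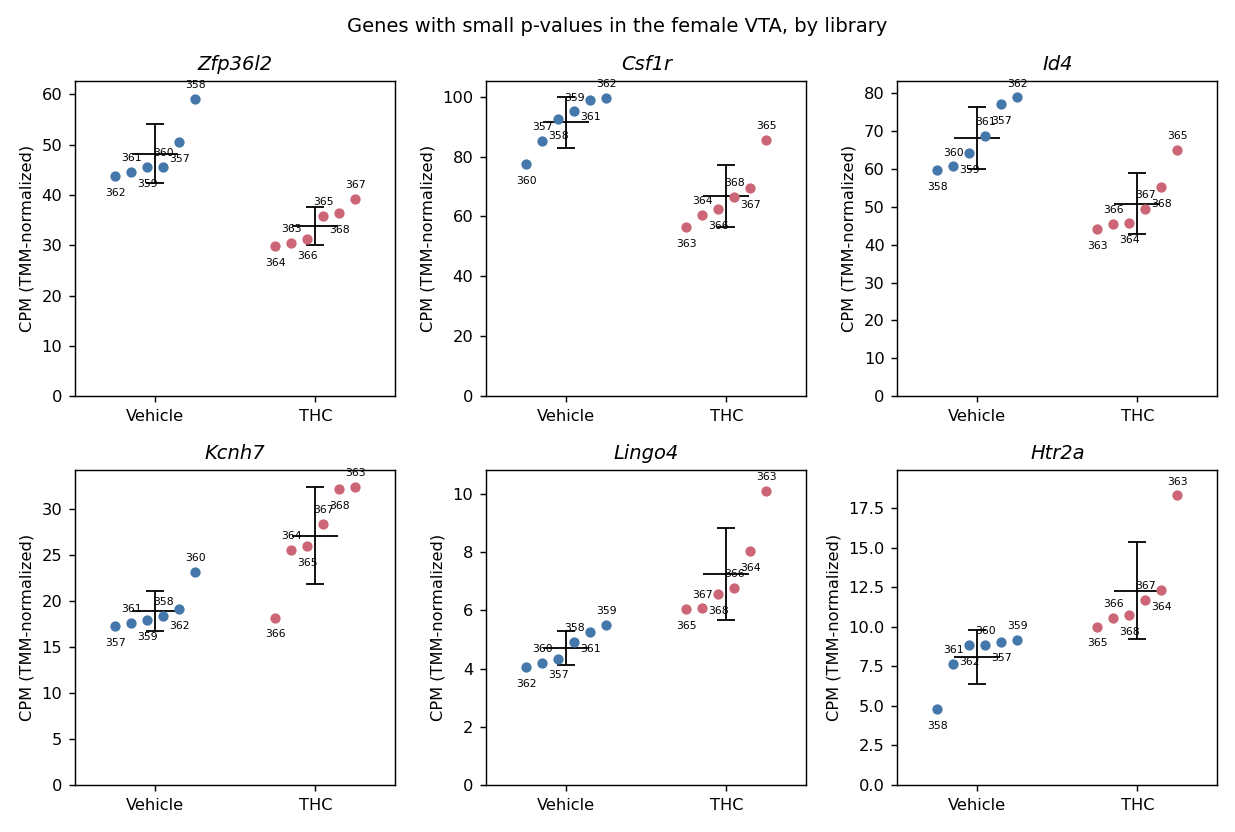
TMM-normalized CPM (y axis, from 0) of 6 genes in each of the 6 vehicle (blue) and 6 THC (red) libraries of the female VTA, labelled with the library number, with the mean and SD of each group as bars. Zfp36l2, Lingo4 and Htr2a do not overlap between the groups, and Csf1r, Id4 and Kcnh7 overlap through 1 THC library each.

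Outside the lists, the lower gene Fermt3, the kindlin of blood and immune cells, ranged from 3.89 to 6.54 CPM with vehicle and from 1.88 to 4.61 CPM with THC (log2 fold change -0.70 ± 0.19). Sox21, a transcription factor of neural progenitors, was at -0.52 ± 0.14 (unadjusted p = 0.00231) with 4 THC libraries below the vehicle range of 16.5 to 20.3 CPM.

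Among the genes higher with THC was Kcnh7, an ERG-type potassium channel. It ranged from 17.2 to 23.1 CPM (median 18.1) with vehicle and from 18.2 to 32.4 CPM (median 27.1) with THC. Library FTL_366 alone lay within the vehicle range, and the log2 fold change was 0.52 ± 0.12 (unadjusted p = 0.000497). Lingo4, a leucine-rich repeat membrane protein, did not overlap between the groups, with 4.05 to 5.49 CPM against 6.04 to 10.1 CPM (log2 fold change 0.62 ± 0.15), as was so for 26 genes of those tested (0.165%) in the higher direction. Htr2a, the serotonin 5-HT2A receptor, was another of these, at 4.79 to 9.195 CPM with vehicle and 10.01 to 18.3 CPM with THC (log2 fold change 0.60 ± 0.17, unadjusted p = 0.00266). Its highest value was that of library FTL_363.

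Cmtr2, an mRNA cap methyltransferase, was higher in every THC library (8.93 to 10.9 CPM) than in any vehicle library (5.72 to 8.74 CPM), by 0.45 ± 0.11 on the log2 scale. The cadherin Cdh12 was at 0.54 ± 0.15, with library FTL_367 inside the vehicle range. The others by the same rule were Mycbp (0.46 ± 0.13), the zinc finger gene Zfp78 (0.70 ± 0.20), the noncoding RNA Lncenc1 (0.82 ± 0.24), Zan (0.81 ± 0.21) and the vomeronasal receptor Vmn2r87 (0.89 ± 0.23), the last with no library above 2.15 CPM. The uncharacterized gene 4933427D14Rik went from 9.55 to 14.8 CPM with vehicle to 14.6 to 20.9 CPM with THC (log2 fold change 0.59 ± 0.11, unadjusted p = 8.84e-05). The part of the punch composition in the values of the higher genes was not tested.

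Dopamine neuron markers were mostly below 0 but varied widely within the THC group. Of 25 markers, 23 were below 0, beside 50% of all genes, 2 were lower and none higher, and the median log2 fold change was -0.32. Without library FTL_363 the median of the dopamine neuron list was -0.18, and Th was at -0.28, Slc6a3 at -0.22 and Slc18a2 at -0.18. The count of dopamine neuron markers that were lower ran from 1 to 9 with 1 library left out, with 4 without library FTL_364 and 9 without library FTL_366, and was 16 without libraries FTL_363, FTL_364 and FTL_366, which leaves 3 THC libraries. The mean log2 CPM of the list was 5.59 in library FTL_363 and 5.83 in library FTL_368, under the vehicle range of 6.42 to 6.77, and 6.26 to 6.80 in the other 4 THC libraries. Library FTL_363 was the lowest for this list and FTL_366, at 6.80, the highest. A smaller difference without FTL_363 and a larger one without FTL_366 were therefore fixed by their removal. Th itself was at -0.43 ± 0.26 (unadjusted p = 0.129), and it was lowest in library FTL_363 at 236.4 CPM and in library FTL_368 at 342.7 CPM. The dopamine transporter Slc6a3 (-0.37 ± 0.26) and the vesicular monoamine transporter Slc18a2 (-0.33 ± 0.26) had the same 2 lowest libraries. The transcription factors Foxa1 (-0.37 ± 0.12, unadjusted p = 0.00642) and Pitx3 (-0.51 ± 0.22, unadjusted p = 0.0357), both needed for midbrain dopamine neurons, were the 2 members counted.

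Of 19 key driver genes that the study named for the female VTA, chosen in part through gene modules built on these samples and therefore not independent evidence of direction, 3 were higher and 1 was lower, with a median log2 fold change of 0.02. The RNA-binding protein gene Matr3 (0.15 ± 0.06), the importin-like Ranbp6 (0.14 ± 0.06) and the phospholipase Pnpla8 (0.14 ± 0.06) were higher, and Foxa1 was lower. No key driver was higher without vehicle library FTL_361, and 3 were lower without THC library FTL_366. Library FTL_366 was the highest for this list, so a shift down without it was fixed by its removal. The vesicular glutamate transporter Slc17a6, of VTA glutamate neurons, was the single member counted among 16 GABA and glutamate neuron markers. It ranged from 138.2 to 264.6 CPM with vehicle and from 220.5 to 382.9 CPM with THC, a log2 fold change of 0.50 ± 0.19 (unadjusted p = 0.0217). The GABA synthesis genes Gad1 (-0.10 ± 0.24) and Gad2 (0.10 ± 0.25) did not pass.

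In the endocannabinoid system, 15 of 17 genes were tested, 1 was higher, 2 were lower and the median was -0.04, beside 4.64% of all genes higher and 4.38% lower, so the genes that follow are given as single genes. Cnr1, which encodes CB1, ranged from 44.5 to 55.6 CPM with vehicle and from 44.99 to 67.3 CPM with THC, with 4 THC libraries above the vehicle range (log2 fold change 0.20 ± 0.09, unadjusted p = 0.0384). That p was under 0.05 in 4 of the 12 fits without 1 library. Mgll, the lipase that breaks down 2-arachidonoylglycerol, was lower at -0.18 ± 0.08 (unadjusted p = 0.0345). Abhd4, a lipase of anandamide synthesis, ranged from 92.2 to 107.2 CPM with vehicle and from 81.6 to 96.7 CPM with THC, and 5 THC libraries were below the vehicle range (log2 fold change -0.20 ± 0.05, unadjusted p = 0.00173). The receptor genes Cnr2 and Gpr55 were too low to be tested.

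Of 8 opioid genes, the delta receptor gene Oprd1 was higher (0.40 ± 0.17, unadjusted p = 0.0353) and 7 were above 0, the mu receptor gene Oprm1 among them at 0.36 ± 0.19. All 9 nicotinic receptor subunits were below 0, beside 50% of all genes, and Chrna3 was lower (-0.36 ± 0.16, unadjusted p = 0.0354), with its lowest value, 5.73 CPM, in library FTL_363. Chrna6 and Chrnb3, subunits expressed in dopamine neurons, were lowest in the libraries lowest in dopamine neuron markers, Chrna6 at 63.9 CPM in library FTL_363 and 118.4 CPM in library FTL_368, and Chrnb3 at 29.9 and 37.4 CPM. Library FTL_363 was also the lowest for the mean level of the nicotinic list, so a smaller difference without it was fixed by its removal. The median of the nicotinic list was -0.36, and it was -0.22 without library FTL_363 and -0.03 with the dopamine neuron covariate. Chrna6 and Chrnb3 also belong to the dopamine neuron list that makes this covariate, so part of the shift with the covariate was built in. Among the 15 purinergic receptors tested, the microglial P2ry12 and P2ry13 were the 2 counted. The immediate early genes Fos (-0.62 ± 0.26, unadjusted p = 0.0345) and Nr4a3 (-0.67 ± 0.27, unadjusted p = 0.0236) were lower among 18 tested. Fos lay between 4.69 and 12.5 CPM with vehicle and between 3.85 and 9.55 CPM with THC, so the groups overlapped.

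The clock genes Clock (0.13 ± 0.05) and Nr1d2 (0.16 ± 0.06) were higher among 17, and of 12 glucocorticoid response genes Pdk4, an inhibitor of pyruvate oxidation, was lower (-0.29 ± 0.13). Of 36 interferon response genes tested, Ifit3b was lower (-0.49 ± 0.20), and the mean level of that list was highest in library FTL_365, without which 16 interferon response genes were lower. The 13 mitochondrially encoded genes were all above 0, with a median of 0.11, and none was counted.

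Of 19 oligodendrocyte markers 1 was lower, the lineage factor Sox10 (-0.16 ± 0.05, unadjusted p = 0.00834), and myelin basic protein Mbp was at -0.07 ± 0.07. Of 9 precursor markers 1 was lower, Gpr17 (-0.24 ± 0.09), a receptor of differentiating precursors. Of 21 endothelial and mural cell markers 1 was higher, the organic anion transporter Slco1a4 (0.21 ± 0.09), and Cldn5, of the tight junctions, was at -0.20 ± 0.12. No fibroblast (10 tested), haemoglobin (4), choroid plexus and ependyma (6) or hypothalamus and mammillary body (8) marker was counted, although all 10 fibroblast markers were below 0 with a median of -0.51. The fibroblast median was -1.18 without library FTL_365, where 7 were lower, between -0.36 and -0.32 without FTL_358, FTL_361, FTL_363, FTL_364 or FTL_366 alone, and 0.20 without libraries FTL_363, FTL_364 and FTL_366. Those libraries were set apart for low fibroblast and haemoglobin levels, so a higher median without them was fixed by their removal. Library FTL_365 was the highest in fibroblast markers, so a lower median without it was fixed as well. Of the endothelial and mural cell markers 5 were lower without library FTL_365, and of the oligodendrocyte markers 5 were lower without library FTL_360. The cortex and hippocampus list had 1 higher member, Nrn1 (0.28 ± 0.10). Tph2, the serotonin synthesis enzyme of the raphe, was counted as lower (-2.30 ± 1.02) through vehicle libraries FTL_357 and FTL_362, at 12.8 and 9.12 CPM, while no other library exceeded 1.02 CPM.

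**Figure D5:**
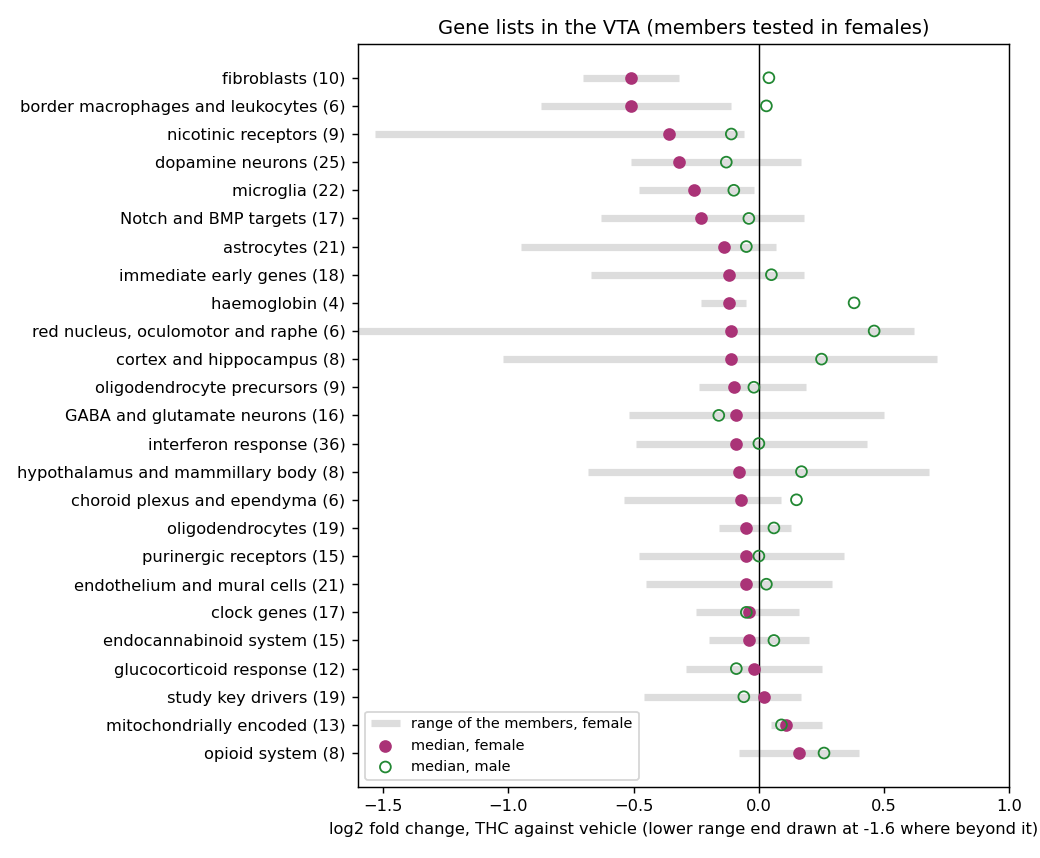
Median log2 fold change of THC against vehicle for 25 gene lists in the female VTA (filled points) and male VTA (open points), with the range of the members in females as grey bars and the number of members tested in females in parentheses. Microglia stand at -0.26 in females and -0.10 in males, and dopamine neurons at -0.32 and -0.13.

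The male VTA (5 vehicle and 6 THC libraries, treated alike, with 3090998 to 77042133 expected counts) gave 0 calls of 17103 genes (0%), with 589 higher (3.44%) and 423 lower (2.47%) at an unadjusted p under 0.05, 5.92% in all. DESeq2 called 1 gene there, Sst. The study's methods report 1 male VTA sample removed as an outlier, without naming it. All 11 deposited male libraries were used here, among them vehicle library FTL_371, with the 3090998 counts. No edgeR fit without 1 library called a gene in the male VTA or in the sex x treatment interaction. Of the 22 microglia markers 1 was lower in males, Laptm5 (-0.22 ± 0.10), 18 were below 0 and the median was -0.10. The male count was 0 without FTL_370, FTL_372, FTL_373, FTL_374, FTL_376, FTL_378 or FTL_379 and 2 without FTL_369. Csf1r was at -0.19 ± 0.12 in males against -0.45 ± 0.09 in females. The sex x treatment interaction over the 23 VTA libraries called 0 of 16881 genes (0%), with 1040 (6.16%) at an unadjusted p under 0.05, 2.55% higher in males and 3.61% lower, and DESeq2 also called 0. For Csf1r the male minus female difference was 0.25 ± 0.17 (unadjusted p = 0.14). Tyrobp was the 1 microglia marker with an interaction p under 0.05, at 0.63 ± 0.28 (unadjusted p = 0.0327).

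Zfp36l2 was at -0.13 ± 0.08 in males, and the male minus female difference was 0.37 ± 0.13 (unadjusted p = 0.00674). Of the astrocyte markers 5 were lower in males, with a median of -0.05, and Slc1a2 was lower there at -0.17 ± 0.06 against 0.07 ± 0.05 in females (interaction, unadjusted p = 0.00127). The genes of smallest interaction p were 2310033P09Rik (male minus female log2 difference 0.36 ± 0.08), Gm14322 (-1.22 ± 0.28), the NACHT and WD repeat gene Nwd1 (-0.33 ± 0.08), the vesicular glutamate transporter Slc17a8 (3.30 ± 0.76) and Adprhl2 (0.35 ± 0.09), each with an edgeR FDR of 0.780. Slc17a8 was low in males, at 0.458 to 1.27 CPM with vehicle and 1.11 to 12.6 CPM with THC. Its highest male values were in THC libraries FTL_377 (12.6 CPM) and FTL_376 (5.94 CPM). No single gene passed the test of a difference between the sexes.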

How the data were processed

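RNA of VTA punches was sequenced as polyadenylated, stranded libraries. The authors used cutadapt 2.9 for trimming, STAR 2.7.3a for alignment to mm10 and RSEM 1.3.1 for counting per gene, and the deposited values are RSEM expected counts, which divide a read that fits several genes among them and are not normalized (tools and versions per the submitters' processing notes). Of the values in the VTA libraries, 5.02% were not whole, so near-identical genes share reads. Each of the 71 library columns of the table that holds the VTA was matched to a sample, and the 23 VTA columns were used. Groups were taken from the sample labels, which do not say which mouse a library came from, so p-values measure the spread between these libraries.

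Expected counts were rounded to whole numbers. The 12 libraries were fitted alone with edgeR 4.0.16 in R 4.3.3 (filter on low counts, TMM normalization, robust quasi-likelihood F test), since the study compared treatments within a region and sex, with Benjamini-Hochberg adjustment over all genes tested. Calls needed an FDR under 0.05 with a log2 fold change of 0.4 or more in size. The SE is the log2 fold change divided by the square root of F. Levels are given as CPM after TMM normalization, with a prior count of 2 for log2 CPM. Library totals limit the precision of lowly expressed genes most, and counting intervals cover counting error only.

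Genes named are those called in any fit, the 10 of smallest p in each direction with at least 1 CPM and a fold change of that size (predicted genes left out), members of the 25 lists with an unadjusted p under 0.05 or among the first 3 listed, and the 5 of smallest interaction p. A few genes that this rule names are not reported here, though they count in the list totals. A few other list members are named for comparison and were chosen after their values were seen. The members and lists were chosen with earlier results of these data known. The list members come from general knowledge, except the key drivers, which the study took from networks of other data and gene modules of these samples. The glial, interferon and purinergic lists cover themes that the study had reported for its female VTA modules. Alternatives were DESeq2 1.42.0, its size factors in edgeR, no filter, limma 3.58.1 voom with sample weights, all 4 VTA groups in 1 fit, 1 surrogate variable (sva 3.50.0), the dopamine neuron level as a covariate and each library left out. The fibroblast covariate, the fit without libraries FTL_363, FTL_364 and FTL_366 and the counts of glial markers were added after the data were seen. Gene positions are from GENCODE on GRCm38, and promoters from RefSeq.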

Additional observations from a re-analysis of the deposited data

Results flagged for a closer look

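The highest or lowest library of a group was set apart where Dixon's ratio, its gap to the nearest other library over the range of the group, exceeded the critical value for 6 values. Chance alone sets apart about 1 group in 20. The number set apart here, 43, is not read against that share, since several genes were named because they were called without library FTL_365, and genes such as the haemoglobins move together.

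Vehicle library FTL_360 was the highest of its group for Kcnh7 (23.09 CPM against 17.22 to 19.11), Neurod6 (12.01 CPM against 3.653 to 4.977), Hba-a1 (328.9 CPM against 190.6 to 241) and Hba-a2 (579.7 CPM against 326.3 to 406.9). Vehicle library FTL_358 was the highest of its group for Aldh1l1 (114.3 CPM against 89.54 to 97.67), Flt1 (74.09 CPM against 59.3 to 63.86), Foxb1 (54.68 CPM against 6.294 to 22.02), Ifit2 (33.47 CPM against 16.69 to 22.74), Nr1d2 (115.3 CPM against 105.6 to 108.5) and Hey1 (52.26 CPM against 41.48 to 45.17). Vehicle library FTL_358 was the lowest of its group for Htr2a (4.79 CPM against 7.627 to 9.195) and mt-Nd2 (1510 CPM against 2115 to 2433). Vehicle library FTL_361 was the highest of its group for Mycbp (5.576 CPM against 4.24 to 4.648) and Oprd1 (8.332 CPM against 4.33 to 5.791). Vehicle library FTL_362 was the highest of its group for Ifit1 (7.413 CPM against 2.544 to 4.294) and Chrna3 (16.25 CPM against 13.31 to 14.24). Vehicle library FTL_359 was the lowest of its group for Hes1 (6.651 CPM against 7.413 to 7.773). THC library FTL_365 was the highest of its group for Adamts9 (14.34 CPM against 5.111 to 7.943), Gm9780 (0.8912 CPM against 0 to 0.1409), Ifit3 (29.46 CPM against 9.932 to 11.51), Il6st (198.9 CPM against 114 to 139.8), Lcat (33.3 CPM against 14.94 to 21.2) and Padi2 (104.8 CPM against 53.64 to 71.21). THC library FTL_365 was also the highest of its group for Stab1 (20.47 CPM against 9.39 to 12.82), C1qb (59.05 CPM against 40.29 to 46.85), Cd163 (3.768 CPM against 0.4472 to 1.485), Lyve1 (2.088 CPM against 0 to 0.3127), Kl (7.18 CPM against 1.61 to 3.038) and Slc17a7 (72.67 CPM against 1.197 to 2.504). THC library FTL_365 was also the highest of its group for Isg15 (5.194 CPM against 0.4472 to 1.313), Ifit1 (12.83 CPM against 2.057 to 3.651), Chrna2 (12.07 CPM against 0.1685 to 1.564), Hba-a1 (761.9 CPM against 21.68 to 229.5), Hba-a2 (1301 CPM against 35.67 to 351.7) and Hbb-bs (1680 CPM against 47.69 to 508.4). THC library FTL_365 had the highest total of its group, 3.848e+07 expected counts against 1.123e+07 to 1.817e+07. In THC library FTL_365 the mean log2 CPM of the cortex and hippocampus list was 4.43, above the 3.65 to 3.82 of the other 5. In THC library FTL_365 the mean log2 CPM of the interferon response list was 3.32, above the 2.17 to 2.49 of the other 5. In THC library FTL_368 the mean log2 CPM of the red nucleus, oculomotor and raphe list was 0.71, below the 1.33 to 1.69 of the other 5. THC library FTL_363 was the highest of its group for Htr2a (18.31 CPM against 10.01 to 12.34), Lncenc1 (5.842 CPM against 2.317 to 2.97) and mt-Nd1 (3714 CPM against 2996 to 3257). THC library FTL_367 was the lowest of its group for Cdh12 (4.065 CPM against 6.618 to 7.639).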

How the results depend on the processing

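No gene was called in 11 of the 12 fits without 1 library, or with DESeq2 size factors, voom, all 4 groups, either covariate, or without libraries FTL_363, FTL_364 and FTL_366. DESeq2 called 3, no filter 1 (Zfp36l2), 1 surrogate variable 2 (Csf1r and Lcat) and the fit without library FTL_365 called 15, so the range over the left-out libraries was 0 to 15. The share of genes tested that were higher at an unadjusted p under 0.05 was 4.64% with all libraries, 3.83% (1120 genes) with no filter, 2.79% with the dopamine neuron covariate, 1.67% with the fibroblast covariate, 1.62% without libraries FTL_363, FTL_364 and FTL_366, and 2.99% (without FTL_363) to 6.28% (without FTL_365) with 1 library left out. The share lower was 4.38% with all libraries, 3.74% (1092 genes) with no filter, 1.82% with the fibroblast covariate, 2.31% without the 3 libraries, and 2.91% to 7.62% (without FTL_365) with 1 left out. Microglia markers lower numbered 9 with the dopamine neuron covariate, 8 with the fibroblast covariate, 6 without the 3 libraries and 10 to 16 with 1 left out. Astrocyte markers lower numbered 3 with the fibroblast covariate, 2 without the 3 libraries and 5 to 10 with 1 left out. The male VTA had 1 call with DESeq2. The cause of these shifts was not tested, beyond the smaller number of libraries or the larger number of genes in some fits. Genes at an unadjusted p under 0.05 for the interaction numbered 1040 with all libraries, 1985 with no filter and 642 without male vehicle library FTL_372. Counts for the other lists were run under the same alternatives after the data were seen. Among the counts lower that moved were 16 dopamine neuron markers (2 with all libraries), 7 key drivers (1) and 4 GABA and glutamate neuron markers (0) without libraries FTL_363, FTL_364 and FTL_366, 6 interferon response genes (1) and 8 Notch and BMP targets (5) with 1 surrogate variable, and 3 border macrophage markers (0) with voom or 1 surrogate variable. Without library FTL_365 the counts lower were 16 interferon response genes, 9 Notch and BMP targets, 7 fibroblast, 5 border macrophage and 5 endothelial and mural cell markers. That library was the highest THC library for each of these lists, so a larger difference without it was fixed by its removal. The microglia count in the male VTA ran from 0 to 2 with 1 library left out. Border macrophage medians were -1.07 with voom and -0.95 with 1 surrogate variable, and the fibroblast median was -0.91 with 1 surrogate variable. Among 128 genes named, 33 changed sign in some fit, none of them with an unadjusted p under 0.05 with all libraries. The log2 fold changes of these genes follow. Without libraries FTL_363, FTL_364 and FTL_366 they were Ifit3 0.01, Gad2 -0.31, Mrc1 0.11, Lyve1 0.30, Pdgfra 0.00, Cldn5 0.02, Pecam1 0.09, Dcn 0.20, Col1a1 0.07, Col1a2 0.12, Kl 0.34, Foxb1 0.70, Pou4f1 -0.56, Ifit2 0.39, Fosb -0.36, Hba-a1 0.74, Hba-a2 0.66 and Hbb-bs 0.78. Those libraries were set apart for low fibroblast and haemoglobin levels. Higher values of the fibroblast genes Dcn, Col1a1 and Col1a2 and of the haemoglobins were therefore fixed by their removal. With the dopamine neuron covariate the values were Slc6a3 0.00, Slc18a2 0.05, Ddc 0.09, Oprk1 0.25, Fosb -0.04, Fosl2 -0.17 and Arntl -0.01. Slc6a3, Slc18a2 and Ddc are members of the list that makes this covariate, so their shifts were built in. With limma voom the values were Gad2 -0.02, Pou4f1 -0.24, Chat 0.28, Isg15 -0.35, Ifit1 -0.08, Nr3c1 -0.04 and mt-Nd2 -0.01. With the fibroblast covariate they were Gad2 -0.18, Pecam1 0.08, Kl 0.26, Foxb1 0.61, Pou4f1 -0.20, Ifit2 0.29, Fosb -0.13 and Fkbp5 0.00. With 1 surrogate variable they were Isg15 -0.34 and Ifit1 -0.07. With 1 library left out, the fits ranged over Gad1 -0.27 to 0.02, Gad2 -0.05 to 0.23, Mog -0.09 to 0.01, Kl -0.62 to 0.02, Foxb1 -0.82 to 0.43, Lhx5 -0.14 to 0.03, Pou4f1 -0.01 to 0.99, Chat -0.44 to 0.31, Isg15 -0.75 to 0.25, Ifit1 -0.45 to 0.47, Ifit2 -0.26 to 0.14, Oprk1 -0.24 to 0.02, Fosb -0.09 to 0.31, Fosl2 -0.08 to 0.23, Nr3c1 -0.02 to 0.06, Hba-a1 -1.25 to 0.10, Hba-a2 -1.38 to 0.01 and Hbb-bs -1.15 to 0.14.

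No paired analysis was possible because the labels do not say which mouse a library came from, and replicate numbers follow accession order. With 6 libraries a group and 11228721 expected counts in the shallowest, the depth limits the test most for lowly expressed genes.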
